A study of Mus musculus with 2 samples.

Results

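Lysosomes are acidic compartments in which macrophages degrade engulfed material, old organelles and antigens. Soluble hydrolases reach them mostly on mannose 6-phosphate receptors, a coat of heavily glycosylated membrane proteins protects their limiting membrane, and the V-ATPase, a rotary proton pump with a membrane sector (V0) and a cytosolic ATPase sector (V1), acidifies the lumen. In phagocytes the same proteases also trim antigens and the invariant chain for MHC class II. Transcription of many lysosomal genes is driven by the MiT/TFE factors (TFEB, TFE3, MITF and TFEC), which bind E-box sequences with the core CACGTG near gene starts.

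The genes described here are those on a list of 37 lysosomal genes, together with every gene whose symbol starts with Atp6v, the prefix of V-ATPase subunits. They were taken by symbol alone from probe sets that carry a single gene symbol in the platform annotation. That gave 103 probe sets for 55 genes, out of 20380 single-symbol probe sets for 12393 genes. Of the 37 listed genes 36 were found, and 19 V-ATPase genes were added. Cd63 was not analysed here.

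RNA came from RAW 264.7 cells, an established mouse macrophage-like line transformed by a leukaemia virus. Some cells received interferon gamma (IFN-gamma, 1000 U/ml) with adenosine (300 uM) for 4 h and others IFN-gamma (1000 U/ml) alone for 4 h, so both groups are activated macrophages and no untreated cells were analysed here. RNA of 2 experiments was pooled for each treatment and hybridised to 1 Affymetrix array, so there is no replicate, no test was possible and no difference below has an error of its own. The comparison asks how adenosine alters the IFN-gamma response of macrophages, here for the lysosome.

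Signals are linear intensities. As deposited, the array of IFN-gamma with adenosine had a median of 15.2 over gene probe sets and the IFN-gamma array 45.9. The median log2 ratio of -1.50 was therefore removed by multiplying signals of the adenosine array by 2.82, and all values below are relative to that array median unless called deposited. By contrast, 16 spiked-in control probe sets had a median deposited log2 ratio of -0.53. Scaling on them would place the median of all measured genes at -1.01 and that of the lysosomal genes at -0.89, so directions below are relative to the array and do not show absolute amounts of RNA. A floor of 44.0 was set at the median of the scaled signals. A gene counted as measured when its brighter array reached the floor, which 6818 genes did. Where a gene has several probe sets, the one of highest mean signal stands for it. The scatter of a log2 ratio between probe sets of 1 gene had an SD of 0.52 over 2375 genes, and of 0.41 over the 594 with the highest signals. It is the only spread available and leaves out that between cultures and between arrays. The macrophage markers Cd68, Csf1r, Itgam, Ptprc, Adgre1, Lyz2, Fcgr1 and Cd14 were all measured, with signals summing to 37604 with adenosine and 29825 with IFN-gamma alone. They did not move one way. Lyz2 was at 13361 and 6444 and Cd14 at 9160 and 6403, whereas Fcgr1 was at 1181 and 3388 and Ptprc at 1640 and 2896. Brighter genes had higher ratios on these arrays, as described below, and these marker signals are not corrected for that. None of the 3 T and B cell, 6 fibroblast, endothelial and epithelial, or 4 granulocyte and mast cell markers read was measured, the highest being 11.6 with adenosine and 7.8 with IFN-gamma alone. Of 6 osteoclast markers 3 were measured, and the list summed to 1489 with adenosine and 464.6 with IFN-gamma alone. Tnfrsf11a (1144 and 184.3) and Nfatc1 (296 and 120.1) were higher with adenosine, and Ocstamp (0.85 and 93.9) was lower. Acp5 and Ctsk, the defining lysosomal proteins of osteoclasts, were below the floor on both arrays. The part of these markers in the results was not tested.

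Promoter sequence is shown for the 10 lysosomal genes whose window held an extended E-box, GTCACGTG, read on either strand. In RefSeq windows of GRCm38.p6 running from 250 bases before to 50 after each gene's start, GTCACGTG was found for 10 of the 44 lysosomal genes with a window (22.7%) and for 2.55% of 27025 genes. The shorter core CACGTG, which every GTCACGTG contains, was found for 14 of the 44 (31.8%) and for 8.09% of all genes. A match describes the letters of the window and is not evidence of binding. Each line gives the stretch nearest before the gene's start, 5′ to 3′ on the gene's strand, with the match in capitals (CACGTGAC is GTCACGTG on the other strand).
Ctsa, chr2:164833748-164833777, plus strand: atgagcaaactGTCACGTGatgcagatgct
Ctsd, chr7:142387907-142387936, minus strand: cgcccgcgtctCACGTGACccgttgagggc
Lgmn, chr12:102439125-102439154, minus strand: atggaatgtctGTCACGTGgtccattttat
Gla, chrX:134601183-134601212, minus strand: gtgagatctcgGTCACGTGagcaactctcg
Glb1, chr9:114401017-114401046, plus strand: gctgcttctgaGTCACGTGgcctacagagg
Lamp1, chr8:13159122-13159151, plus strand: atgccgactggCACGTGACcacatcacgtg
Mcoln1, chr8:3500463-3500492, plus strand: ggcgccccgctCACGTGACcgcggcgcatg
Igf2r, chr17:12769695-12769724, minus strand: ccgactcaggtCACGTGACgctccggggac
Atp6v0b, chr4:117887349-117887378, minus strand: tgtgcgcggggGTCACGTGgggtcggcgca
Atp6v0d1, chr8:105566051-105566080, minus strand: gccctactgcgGTCACGTGagacgcggtgc

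Lysosomal genes lay close to the array median as a group. Of 55 genes read 50 were measured, and 1 of these, Ctsc, was at least 2-fold lower with adenosine and 1, Laptm5, at least 2-fold higher. That is 2% of them in each direction, whereas 10.1% of all measured genes were lower by this threshold and 4.52% higher. The median log2 ratio (IFN-gamma with adenosine over IFN-gamma) was 0.08 over the 50 genes and -0.08 over all 6818, and the middle 50% of ratios ran from -0.18 to 0.44 against -0.52 to 0.30. Ratios were above 0 for 30 lysosomal genes and below 0 for 20, against 3000 above and 3816 below of all 6818. In RNA of whole cultures, fewer cells expressing a gene and less RNA per cell cannot be told apart.

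Brighter genes had higher ratios on these arrays, and many lysosomal genes are bright, so each gene was also set against the 200 measured genes nearest to it in mean signal. On this measure the lysosomal median was 0.09 above genes of like signal, and 28 of 50 genes lay above theirs. Among the nearest genes, averaged over the 50, 6.89% passed 2-fold downward, 3% passed it upward and 74.1% changed by under 1.5-fold. Of the lysosomal genes 39 of 50 (78.0%) changed by under 1.5-fold. Across the 50 genes the log2 ratio and the mean signal had a Spearman correlation of 0.43, and of 0.09 across all 6818. Both come from the same signals, and genes are not independent replicates.

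**Figure D1:**
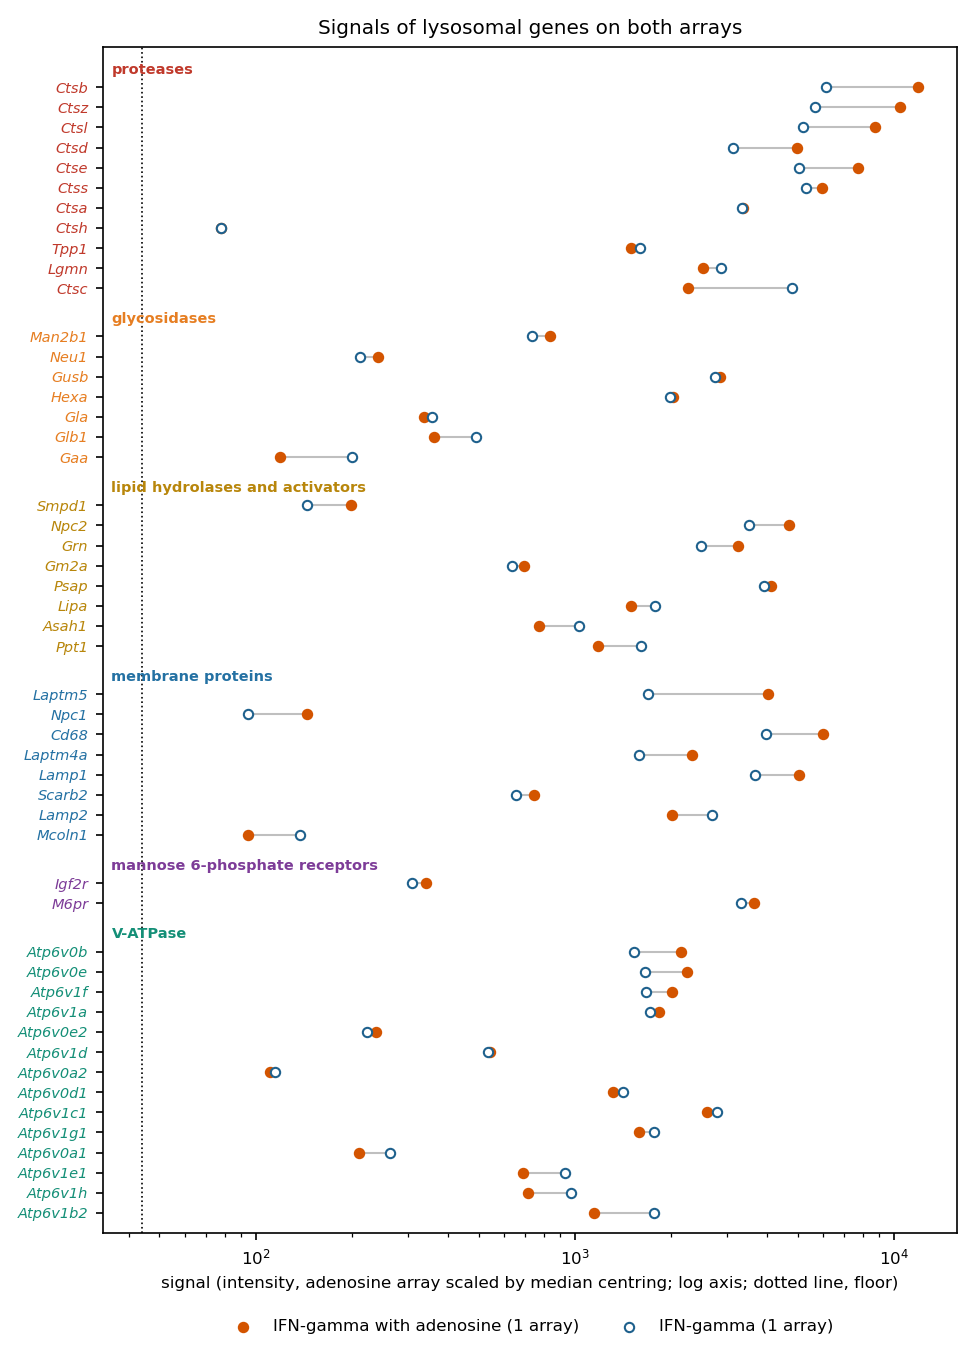
Signals of the 50 measured lysosomal genes by role. Filled points are the array of IFN-gamma with adenosine, scaled by median centring, and open points the IFN-gamma array, on a log axis of intensity, with the floor of 44.0 dotted. Most pairs of points lie close together, and the widest gaps are those of Ctsc (lower with adenosine) and Laptm5 (higher).

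**Figure D2:**
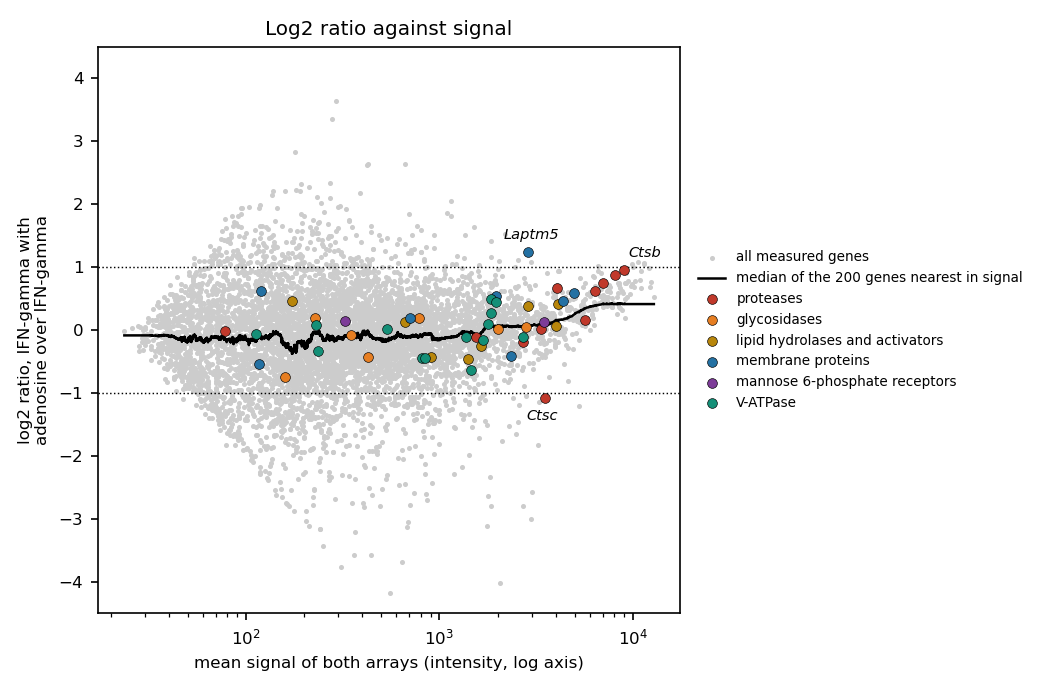
Log2 ratio of IFN-gamma with adenosine over IFN-gamma against the mean signal of both arrays (log axis). Grey points are the 6818 measured genes, the line is the median of the 200 genes nearest in signal, coloured points are the 50 lysosomal genes by role, and dotted lines mark 2-fold. The line rises above 0 at the bright end, where many cathepsin genes lie.

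Proteases cleave proteins delivered to the lysosome. All 11 were measured, 1 was lower by 2-fold or more and none higher, and the median log2 ratio was 0.16. The sign of that median depended on which probe sets were read. Once those named for shared targets were left out, 8 proteases remained and their median was -0.05. Raising the floor (67th percentile) left 10 proteases and a median of 0.39. Ctsc encodes cathepsin C, a dipeptidyl peptidase that activates granule serine proteases. Its signal was 2260 with adenosine and 4792.5 with IFN-gamma alone, 2.12-fold lower (log2 ratio -1.08). Of the 200 genes nearest in signal, 5 had a ratio as low. Ctsc is read from a single probe set, so no second probe set checks its ratio.

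The cysteine proteases cathepsin B (Ctsb), cathepsin Z (Ctsz) and cathepsin L (Ctsl) had the highest ratios of the 11. Ctsb was at 11915 with adenosine and 6118 with IFN-gamma alone, 1.95-fold higher. Ctsz was at 10444 and 5670 (1.84-fold higher), and Ctsl at 8737 and 5208 (1.68-fold higher). All 3 lay among the brightest genes of the arrays, whose nearest 200 had a median log2 ratio of 0.42. Against these, Ctsb was 0.55, Ctsz 0.47 and Ctsl 0.33 higher on the log2 scale. The aspartic proteases cathepsin D (Ctsd, 4968 and 3125.5) and cathepsin E (Ctse, 7726 and 5030) had log2 ratios of 0.67 and 0.62. The Ctse probe set carries a name for shared targets, and the gene's other probe set, at 312 and 473, had a log2 ratio of -0.60, so the direction of Ctse is uncertain.

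Cathepsin S (Ctss), the main processor of the invariant chain in antigen-presenting cells, was at 5957 with adenosine and 5316.5 with IFN-gamma alone (log2 ratio 0.16), 0.18 below genes of like signal. Legumain (Lgmn), an asparaginyl endopeptidase that matures several cathepsins, was at 2515 and 2880 (-0.20). Tpp1, a tripeptidyl peptidase, at 1496 and 1607, had a log2 ratio of -0.10 (second probe set 0.08), Ctsa, the carboxypeptidase that protects neuraminidase and beta-galactosidase, 0.01, and Ctsh, an aminopeptidase, -0.01 at the low signals of 77.8 and 78.1. These 5 genes differed by less than the scatter between probe sets.

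Ctsb is the protease with the widest disagreement among probe sets. Its 2 bright probe sets gave log2 ratios of 0.96 and 0.78, whereas dimmer ones gave -0.92 (773 with adenosine and 1457 with IFN-gamma alone) and -0.46 (291 and 399.9). Probe sets of like signal had medians of 0.47 for both bright ones, and of -0.10 and -0.05 for the dimmer ones. Ctsz agreed in sign over its 3 probe sets, at 0.88, 0.45 and 0.13.

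Glycosidases remove sugars from glycoproteins, glycolipids and glycogen. All 7 were measured, none changed by 2-fold, and the median log2 ratio was 0.02. Gaa, the acid alpha-glucosidase that breaks down glycogen, was lowest at 119 with adenosine and 200.1 with IFN-gamma alone (log2 ratio -0.75), but its other probe set gave -0.09. The beta-galactosidase gene Glb1 was at 362 and 489 (-0.43), and the alpha-galactosidase gene Gla at 338 and 357 (-0.08). At the other end were the alpha-mannosidase gene Man2b1, at 839 and 734 (0.19), and the sialidase gene Neu1, at 242 and 212 (0.19). Gusb, the beta-glucuronidase, was at 2861 and 2753 (0.06) by its main probe set and at 0.76 by the other. Hexa, the alpha subunit of beta-hexosaminidase, was at 2027 and 1995 (0.02).

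The third set of luminal proteins handles lipids. All 8 were measured, none changed by 2-fold, and the median log2 ratio was 0.10. Smpd1, the acid sphingomyelinase, was highest at 199.6 with adenosine and 144.5 with IFN-gamma alone (log2 ratio 0.47). It lay 0.78 above genes of like signal, and 26 of the 200 nearest had a ratio as high. The cholesterol-binding protein gene Npc2 was at 4685 and 3525 (0.41, second probe set 0.27) and the progranulin gene Grn at 3247 and 2491 (0.38, other probe sets 0.02 and 0.06). Lowest were the palmitoyl-protein thioesterase gene Ppt1, at 1183 and 1619 (-0.45), the acid ceramidase gene Asah1, at 774 and 1035 (-0.42), and Lipa. The second Ppt1 probe set went further the same way, at 712 and 1567 (-1.14). The sphingolipid activator gene Psap was at 4109 and 3913 (0.07), and at 3717 and 2735 (0.44) by its second probe set. Gm2a, which encodes the GM2 activator, was at 696 and 637 (0.13), and at 260.2 and 155.0 (0.75) by its second.

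Lipa encodes lysosomal acid lipase, which frees cholesterol and fatty acids from lipoprotein lipids. Its probe set of highest signal was at 1506 with adenosine and 1790.5 with IFN-gamma alone (log2 ratio -0.25). The other 2 were at 2110 and 1159 (0.86) and at 1170 and 426 (1.46). The probe set that stands for the gene carries a name for shared targets and the others do not, so the sign of Lipa depends on which is read.

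Membrane proteins had the highest median of the lists. All 8 found were measured, 1 was at least 2-fold higher and none was 2-fold lower. The median log2 ratio was 0.50, and 6 of 8 lay above 0, against 3000 of all 6818 measured genes. Laptm5, a transmembrane protein of haematopoietic lysosomes, was at 4021 with adenosine and 1701 with IFN-gamma alone, 2.36-fold higher (log2 ratio 1.24). None of the 200 genes nearest in signal had a ratio as high. Its other probe sets disagreed, with 2179 and 559 (1.96) for one and 1874 and 2487 (-0.41) for the other, and all 3 carry names for shared targets.

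Npc1, the cholesterol exporter of the lysosomal membrane, was at 145 with adenosine and 94.4 with IFN-gamma alone (log2 ratio 0.62). Cd68, a mucin-like protein of macrophage lysosomes, was at 6000 and 3978 (0.59), Laptm4a, a transmembrane protein of late endosomes and lysosomes, at 2329 and 1594 (0.55) and the abundant coat protein gene Lamp1 at 5050 and 3673 (0.46). These 4 genes were each read from 1 probe set, and lay 0.29 (Lamp1) to 0.74 (Npc1) above genes of like signal. Ratios scatter more among dim genes such as Npc1. Of the 200 genes nearest in signal, 39 were as high for Npc1, 33 for Lamp1, 32 for Cd68 and 18 for Laptm4a.

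Other membrane proteins were on the opposite side or near 0. Lamp2, the partner of Lamp1 and receptor of chaperone-mediated autophagy, was at 2022 with adenosine and 2697 with IFN-gamma alone (log2 ratio -0.42). Its other probe sets gave -0.88, -0.41 and 0.02. Mcoln1, the calcium channel of the lysosomal membrane, was at 95.0 and 137.4 (-0.53, second probe set -0.14). Scarb2, the sorting receptor of glucocerebrosidase, was at 746 and 656 (0.19), and at 215 and 372 (-0.79) by its second probe set.

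**Figure D3:**
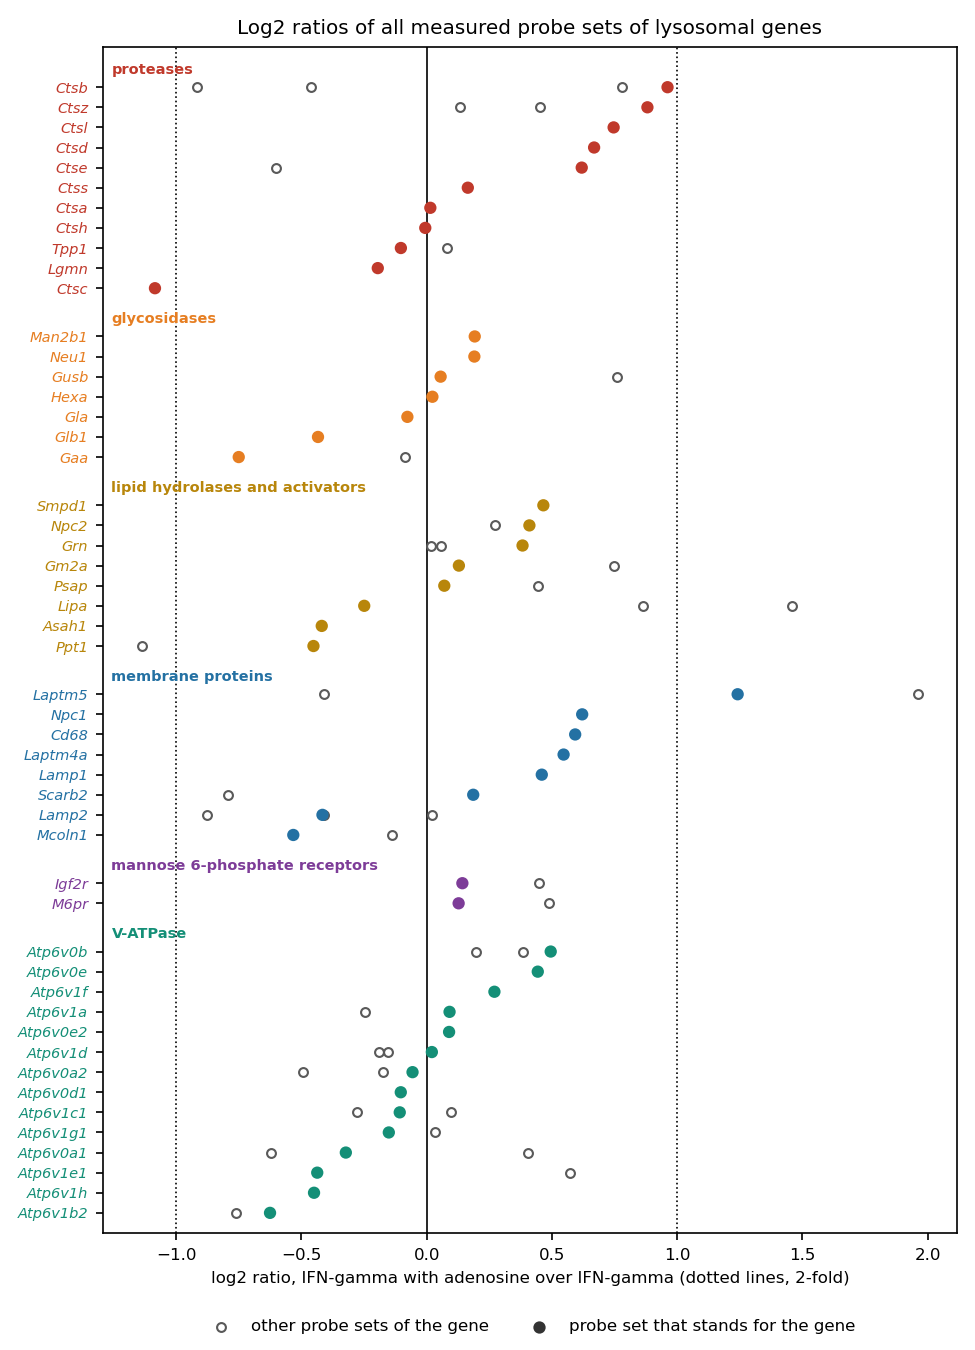
Log2 ratios of IFN-gamma with adenosine over IFN-gamma for every measured probe set of the 50 lysosomal genes. Filled points are the probe set that stands for a gene, open points its other probe sets, and dotted lines mark 2-fold. Probe sets of Laptm5, Ctsb and Lipa are the farthest apart, spanning 2.37, 1.88 and 1.71.

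Probe sets of 1 gene could be compared in part of the list. In 26 lysosomal genes at least 2 probe sets were above the floor on both arrays, and the distance between the highest and lowest log2 ratio had a median of 0.42, against 0.58 over 2375 genes. Their probe sets lay on both sides of 0 in 12 of the 26, against 1062 of the 2375, which is a similar share. The SD of a single ratio from the 2 brightest probe sets was 0.44 in the lysosomal genes, against 0.52 in all genes.

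Mannose 6-phosphate receptors carry new hydrolases from the Golgi to endosomes. The cation-independent receptor gene Igf2r was at 342 with adenosine and 309.5 with IFN-gamma alone (log2 ratio 0.14), and the cation-dependent receptor gene M6pr at 3637 and 3329 (0.13). Second probe sets gave 0.45 and 0.49. Neither gene differed by more than the scatter between probe sets.

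Genes of the V-ATPase lay at the median of all measured genes. Of 19 genes read 14 were measured, none changed by 2-fold, and their log2 ratios ran from -0.63 to 0.50 with a median of -0.08. Of the 14 genes 13 (92.9%) changed by under 1.5-fold, against 65.3% of all measured genes. Many of those are dimmer. Among the 200 genes nearest in signal to each, the share ran from 55.5% for Atp6v0a2 to 83% for Atp6v0b and Atp6v1f. The 5 below the floor on both arrays were Atp6v0a4, Atp6v1b1, Atp6v1c2, Atp6v1e2 and Atp6v1g2, isoforms known from kidney, testis and neural tissue, with signals of at most 17.8 with adenosine and 8.5 with IFN-gamma alone. The ubiquitous isoforms of the same subunits were measured.

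In the V1 sector, 8 genes were measured with a median log2 ratio of -0.13. Lowest was Atp6v1b2, the non-catalytic B subunit of the ATPase ring, at 1147 with adenosine and 1770 with IFN-gamma alone (-0.63, second probe set -0.76), 1.54-fold lower. Atp6v1h, a regulatory subunit, was at 713 and 974 (-0.45) and Atp6v1e1, of the peripheral stalk, at 690 and 934 (-0.44). A second Atp6v1e1 probe set was at 65.4 with adenosine and, at 11.3, under the floor in the IFN-gamma array, which makes it at least 1.49-fold higher. The catalytic subunit gene Atp6v1a was at 1836 and 1724 (0.09, second probe set -0.25), Atp6v1d, of the rotor, at 543 and 534.9 (0.02, others -0.19 and -0.16), and Atp6v1f at 2023 and 1677 (0.27). Of the remaining stalk subunit genes, Atp6v1c1 was at 2590 and 2790 (-0.11, others 0.10 and -0.28) and Atp6v1g1 at 1595 and 1771 (-0.15, second 0.03).

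In the V0 sector, 6 genes were measured with a median log2 ratio of 0.02. Without probe sets named for shared targets, the order of the sectors turned. The V0 median was then -0.30 over 4 genes, with none left for Atp6v0b and Atp6v0e, and the V1 median 0.06 over 8. Atp6v0b, of the proton-carrying ring, was at 2160 with adenosine and 1533 with IFN-gamma alone (0.50, other probe sets 0.39 and 0.20), and the small e subunit gene Atp6v0e at 2252 and 1656 (0.44). Its paralog Atp6v0e2, at 238 and 224, had a ratio of 0.09. Atp6v0d1, which couples the sectors, was at 1321 and 1419 (-0.10). Among the membrane-anchored a subunits, which set the pump's location, Atp6v0a1 was at 210 and 263 (-0.32) and Atp6v0a2 at 111 and 115 (-0.06). The other Atp6v0a1 probe sets were at -0.62 and 0.40, and those of Atp6v0a2 at -0.49 and -0.17. A further a subunit gene, Tcirg1, lacks the prefix and fell in the list of other lysosomal genes. It was at 349 and 328 (0.09). Atp6v0c was not among the genes read.

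Set side by side, the 26 luminal proteins (proteases, glycosidases and lipid-handling proteins) had a median log2 ratio of 0.06, the 8 membrane proteins 0.50 and the 14 V-ATPase genes -0.08. Luminal proteins lay 0.14 above the V-ATPase, and 0.02 above it when each gene was set against genes of like signal. Membrane proteins lay 0.58 above the V-ATPase, and 0.33 by the like-signal measure. With quantile and loess scaling that difference was 0.33 and 0.30. These differences rest on 8 to 26 genes of 1 pair of arrays and have no test.

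**Figure D4:**
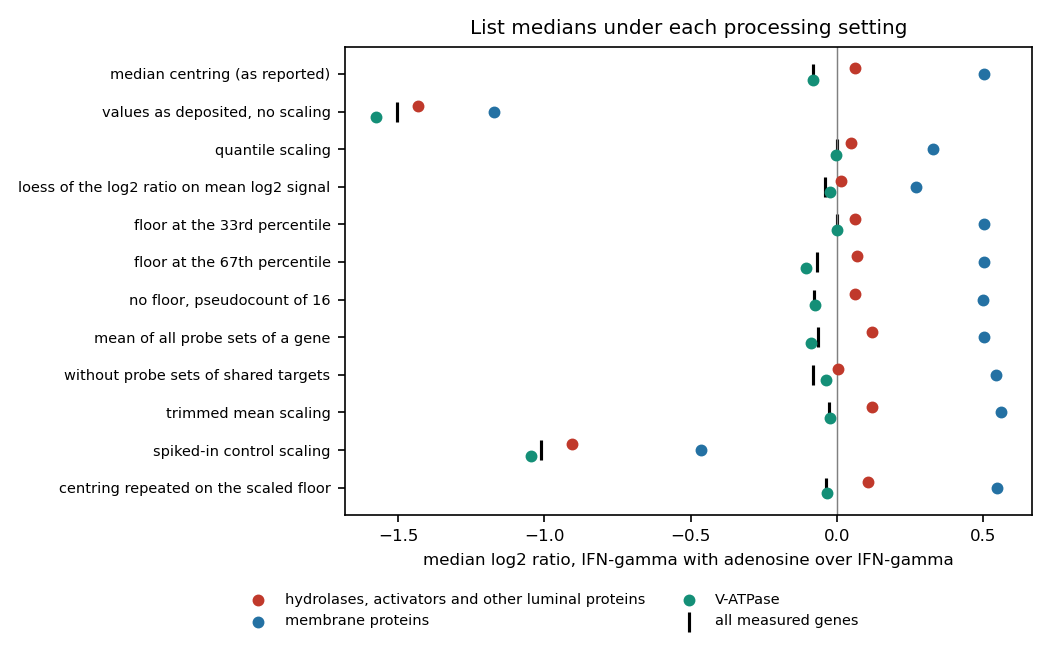
Median log2 ratio of IFN-gamma with adenosine over IFN-gamma for the 26 luminal proteins, 8 membrane proteins and 14 V-ATPase genes under each processing setting, with all measured genes as a black bar. With median centring the values are 0.06, 0.50, -0.08 and -0.08, and membrane proteins have the highest median in every setting drawn.

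Other lysosomal genes, from a list of 49 symbols of which 35 were read, gave 28 measured genes with a median log2 ratio of -0.02. By the 2-fold threshold 3 of these were lower (10.7%, against 10.1% of all measured genes) and 1 was higher (3.57%, against 4.52%), so the list was near the background in both directions. Gnptab, which encodes the phosphotransferase that makes the mannose 6-phosphate tag, was at 227 with adenosine and 645 with IFN-gamma alone, 2.84-fold lower, and its other probe sets gave log2 ratios of -1.10 and -0.79. All 3 Gnptab probe sets were thus on the lower side, unlike the receptors of the tag, Igf2r and M6pr.

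Lamtor1, the membrane anchor of the Ragulator complex that brings mTORC1 to lysosomes, was at 728 with adenosine and 1926 with IFN-gamma alone (log2 ratio -1.40), but its other probe sets gave -0.66 and 0.37. Acp2, the lysosomal acid phosphatase, was at 168.6 and 337, just past the 2-fold threshold, with other probe sets at -0.74 and -0.20. Pla2g15, a lysosomal phospholipase, was at 275 and 92.5, 2.97-fold higher by a shared-target probe set and 1.43-fold by its second. Of 4 cathepsin inhibitor genes 3 were measured, none changed by 2-fold, and their median log2 ratio was 0.14.

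Among the MiT/TFE factors, which bind the E-box shown in the promoters above, 3 were read. Of these 3 genes 2 were at least 2-fold lower with adenosine, against 10.1% of all measured genes, and 3 genes are too few for a share. Mitf was at 71.9 with adenosine and 663 with IFN-gamma alone (log2 ratio -3.20), and its second probe set, below the floor with adenosine, had a ratio of -1.03 or lower. Tfec was at 85.1 and 253.7 (-1.58). The adenosine signals of Mitf and Tfec were not far above the floor of 44.0. Over the processing settings other than deposited values and spiked-in scaling, Mitf ran from -3.20 to -2.00 and Tfec from -1.58 to -0.62. Tfeb, the factor best known for lysosomal genes, was at 64.0 and 65.9 (-0.04), close to the floor. Tfe3 was not analysed here.

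The 10 lysosomal genes with GTCACGTG in the window ran from -0.53 for Mcoln1 to 0.67 for Ctsd, with a median log2 ratio of -0.03. The 29 measured genes with a window but no match had a median of 0.13 and held both extremes, Ctsc and Laptm5. The range of the genes with a match lay wholly inside that of the genes without, which ran from -1.08 to 1.24. A range over 10 genes tends to be narrower than one over 29 in any case. A link between the motif and the ratios was not tested.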

How the data were processed

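Signals of 2 Affymetrix arrays were analysed, 1 per treatment, each of RNA pooled from 2 experiments. The deposited values are linear intensities, and the submitters' processing notes name GCOS. How GCOS computed signals, and to what target they were scaled, is not given in the sources used here. Of 22690 probe sets 64 controls were set aside, 20380 carried a single gene symbol in the platform annotation, 691 several and 1555 none. By Entrez number 20351 matched RefSeq, and 0 symbols changed. The members and gene lists were chosen with earlier results of these data known.

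The adenosine array was scaled by the median log2 ratio of gene probe sets above 24.5, the median deposited signal, on both arrays. Signals under the floor of 44.0 were raised to it before log2 was taken. With 1 array per treatment no test was made, and 2-fold was the threshold for counts. Both arrays were given for genes past 2-fold, for the 3 highest and 3 lowest ratios of each role and for its brightest gene. Genes of other lists were named past 2-fold, as MiT/TFE factors, as cell type markers or, for Tcirg1, as a V-ATPase subunit gene. Markers described singly, and Tcirg1, were chosen after their values were seen. Alternatives varied the scaling, floor, pseudocount, probe set rule and threshold. The number of arrays limits the precision. Calculations used Python 3.11.15, numpy 2.4.6, pandas 2.3.3 and statsmodels 0.14.6, and were tested on simulated data. Promoters came from RefSeq, GRCm38.p6.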

Additional observations from a re-analysis of the deposited data

How the results depend on the processing

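Results with median centring rest on 1 pair of arrays and on the assumption that most genes did not move together. Signs were compared with quantile, loess and trimmed mean scaling, repeated centring and a pseudocount of 16. Further settings were a lower (33rd percentile) or higher (67th percentile) floor, the mean of all probe sets and leaving out shared-target probe sets. Of 50 lysosomal genes 32 kept their sign wherever they had a value, and 18 turned in at least 1 setting. Not all 32 had a value in each setting: Laptm5 had 8 and Mcoln1 7, against 9 for Ctsb. Shared-target probe sets were taken by name alone, as those ending in _s_at, _x_at or _a_at. The last ending need not mean that a probe set matches more than 1 gene. Trimmed mean, spiked-in and repeated centring were chosen after seeing the data. No paired analysis was possible because there is only 1 array of each kind. The cause of the shifts below was not tested.

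As deposited, without scaling, median log2 ratios were -1.43 for the lysosomal genes, -1.43 for luminal proteins, -1.17 for membrane proteins and -1.58 for the V-ATPase. Genes at least 2-fold lower numbered 42, 21, 5 and 14 in that order, and 0 lysosomal and 0 membrane protein genes were 2-fold higher. With spiked-in scaling the medians were -0.89, -0.90, -0.46 and -1.05, with 19, 9, 2 and 8 genes lower and 0 lysosomal and 0 membrane protein genes higher. Of 7117 genes measured as deposited 5605 (78.8%) were lower and 10 higher. Spiked-in scaling gave 3538 of 6975 (50.7%) lower and 33 higher. Loess put the membrane protein median at 0.27. The difference of membrane proteins from the V-ATPase was 0.33 with quantile scaling and 0.30 with loess.

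At 1.5-fold 3 lysosomal genes were lower (2 luminal, 1 V-ATPase) and 8 higher (5 luminal, 3 membrane). At 3-fold 0 lysosomal genes were lower (0 luminal) and 0 higher (0 membrane). Of all 6818 genes 1489 (21.8%) were lower and 879 (12.9%) higher at 1.5-fold, and 202 (2.96%) and 67 (0.983%) at 3-fold. The floor at the 33rd percentile gave 2 lysosomal genes higher, 1 of them V-ATPase, with 944 (10.3%) lower and 599 (6.53%) higher of 9177 genes. At the 67th percentile 328 (6.48%) were lower and 133 (2.63%) higher of 5062. Trimmed mean scaling and repeated centring each gave 2 lysosomal genes higher, 1 of them luminal (Ctsb). Quantile scaling instead put the Ctsb ratio at 0.33 and loess at 0.43. Over the settings other than deposited values and spiked-in scaling, the lowest ratios were 0.09 for Ctsb, 0.29 for Ctsz and 0.25 for Ctsl. Averaging all probe sets, or leaving out shared-target ones, gave 0 lysosomal and 0 membrane protein genes higher, since Laptm5 was averaged with a disagreeing probe set or had none left. Some ratios turned when another probe set came to stand for the gene. Among these were Laptm5 as deposited (-1.90), Lamtor1 without shared-target probe sets (0.37), and Pla2g15 (-0.98 with no scaling, -0.45 using the spiked-in controls). Without scaling, ratios also turned by the same probe set, as for Ctsb (-0.53), Cd68 (-0.90) and Lamp1 (-1.04). The Laptm5 probe set given in the report had a deposited log2 ratio of -0.25. The Pla2g15 probe set given in the report had a deposited log2 ratio of 0.08.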

Other observations

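The lysosomal genes were also divided by mean signal. The 20 above 2000 had a median log2 ratio of 0.27, against 0.18 for all 497 genes in that range. The 18 from 500 to 2000 had a median of -0.04, against -0.08 for 1802 genes, and the 12 under 500 a median of -0.03, against -0.12 for 4519 genes.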
